A study of Mus musculus with 2 samples.

Results

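The genes examined here feed pyruvate into mitochondria, oxidise it in the citric acid cycle and carry reducing equivalents and carbon across the inner membrane. They were taken as 35 named genes, and the long reads of every transcript model assigned to each gene were summed. All 35 carried reads in both libraries, out of 15371 annotated genes with a read in either library and 12265 with a read in both. Gastrocnemius, the large muscle of the calf, was taken from female B6CASTF1/J mice aged 2 months, an F1 hybrid of the C57BL/6J and CAST/EiJ strains supplied by The Jackson Laboratory. Each of 2 libraries was made from 2 µg of total RNA with spike-in RNA added and was read by long-read sequencing, in which a read can cover a transcript from end to end. Replicate 1 came from the animal numbered 3 and replicate 2 from the animal numbered 4, although the labels give the same donor identifier to both. No treatment or second group was part of the design, so every comparison between the libraries compares these 2 libraries and not conditions. Reads were not separated by parental genome.

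The pyruvate dehydrogenase complex turns pyruvate into acetyl-CoA and so decides whether sugar carbon enters the cycle. Kinases switch the complex off by phosphorylating its first enzyme, phosphatases switch it on again, and in skeletal muscle the kinase Pdk4 is known to rise in fasting and to spare glucose while fat is burned. The cycle then oxidises acetyl-CoA through citrate, isocitrate, 2-oxoglutarate, succinyl-CoA, succinate, fumarate and malate, and passes electrons to the respiratory chain. The malate-aspartate shuttle uses malate dehydrogenases and aspartate aminotransferases on both sides of the inner membrane to bring cytosolic NADH equivalents inside. Slow, oxidative muscle fibres hold more mitochondria than fast, glycolytic ones, and the gastrocnemius contains both.

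The libraries held 1349298 reads in replicate 1 and 1359923 in replicate 2, in 85714 and 92049 transcript models. Spike-in RNA took 3.64% and 1.49% of the reads. A list of 8 skeletal muscle markers took 391178 and 390525 reads, so these genes were abundant in both libraries. All 8 passed the test between the libraries, 5 higher and 3 lower in replicate 2. Markers of other tissue components differed more. The 10 slow-fibre markers summed to 2212 and 12982 reads, a ratio of 5.82 in counts per megaread, and 9 of the 10 were higher in replicate 2. Among adipocyte markers, 8 of 9 tested were lower in replicate 2, with 1716 and 235 reads in sum, and the adipocyte hormone gene Retn had 21 and 0 reads. All 6 tested markers of peripheral myelin were lower in replicate 2, with 914 and 132 reads. Markers of red blood cells (145 and 169 reads, 0 of 4 tested past the threshold), endothelium (166 and 148, 0 of 7) and macrophages (150 and 104, 1 of 5, lower) were at low levels in both. The part of these components in the values below was not tested, and fewer cells of a type cannot be told apart from less RNA per cell.

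The 35 genes together held 18880 reads in replicate 1, 1.40% of the library (95% Wilson interval 1.38 to 1.42), and 20941 reads in replicate 2, 1.54% (1.52 to 1.56). Intervals here and below cover counting error only. Of the genes, 32 stood at or above 50 counts per megaread (CPM) in both libraries. The most abundant by CPM was Idh3a, at 1069 and 1104 CPM, and the least abundant were Pdk3 and Pdp2. Since a long read can stand for a whole transcript, reads were not divided by length. Per kilobase of the leading transcript model, Mdh2 and Sdhb stood highest, at 684 and 673 CPM per kilobase in replicate 1 and 699 and 847 in replicate 2, so the order between genes depends on that choice.

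**Figure D1:**
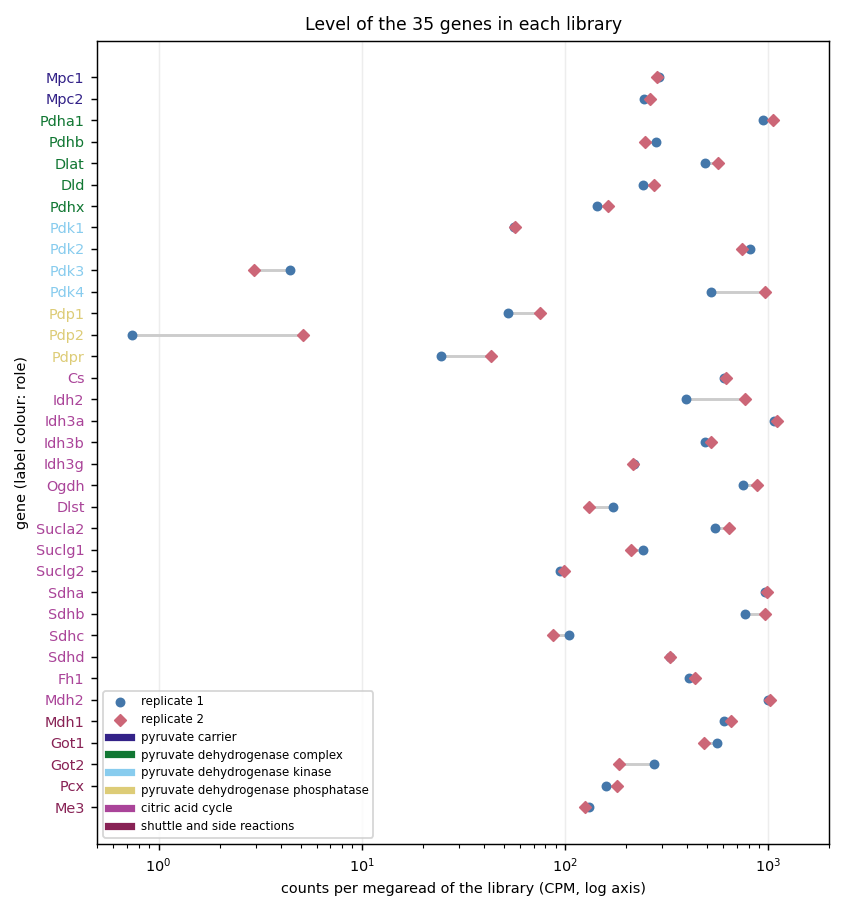
Counts per megaread (CPM, log axis) of each of the 35 genes in replicate 1 (circles) and replicate 2 (diamonds), 1 library each, with the gene labels coloured by role. Most pairs of points lie close together, while Pdk4, Idh2 and Got2 and the less read Pdp2, Pdpr, Pdk3 and Pdp1 lie apart.

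Between the libraries, a two-sided exact test (Fisher's) set the reads of a gene against the rest of the library, for the 9341 genes holding 10 or more reads in sum, and p-values were adjusted over all of them by the Benjamini-Hochberg method. Of the 34 testable members, 6 were higher and 1 was lower in replicate 2 at an adjusted p under 0.05. Across all tested genes, 7.82% passed in either direction, 4.25% higher and 3.56% lower, against 20.6% of the members, 17.6% higher and 2.94% lower. More reads make smaller differences pass, and among all genes with 100 to 3000 reads summed 16.0% passed, against 7 of 32 members (21.9%). The median log2 ratio of replicate 2 to replicate 1 (CPM plus a pseudocount of 1) was 0.06 over the members and -0.01 over all tested genes, with 23 members above 0 and 11 below. The 6 higher genes were Idh2, Pdk4, Sdhb, Ogdh, Sucla2 and Pdha1, and the lower gene was Got2. These p-values measure read sampling alone, since the test sets 1 replicate against the other and variation between animals does not enter it. In edgeR's exact test with an assumed dispersion of 0.01 between animals, Idh2 and Pdk4 still passed, and with 0.04 no member did.

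**Figure D2:**
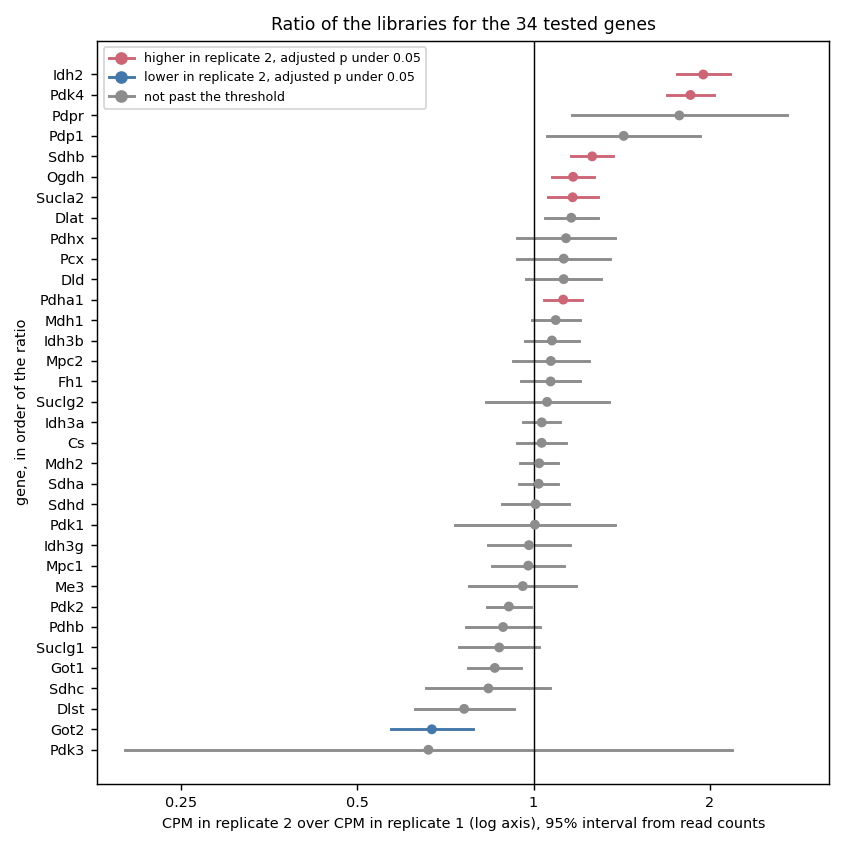
Ratio of CPM in replicate 2 to replicate 1 (log axis) for the 34 tested genes in order of size, with the 95% interval from read counts. Idh2 (1.95) and Pdk4 (1.85) stand at the top, Got2 (0.670) lies near the bottom with its interval wholly under 1, and the wide interval of Pdk3 rests on 6 and 4 reads.

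The mitochondrial pyruvate carrier is a heterodimer of Mpc1 and Mpc2, through which pyruvate crosses the inner membrane. Mpc1 (chr17:8282904-8297661, plus strand, mm10) had 390 and 385 reads, or 289 and 283 CPM, and Mpc2 had 330 and 356 reads, or 245 and 262 CPM. Neither passed the test, with ratios of 0.979 (0.851 to 1.13) and 1.07 (0.922 to 1.24). Mpc2 was almost wholly its annotated transcript Mpc2-201, at 96.7% and 95.2% of reads. Mpc1 was not: its leading model was an unannotated combination of annotated splice sites with 368 and 370 reads, 94.4% and 96.1% of the gene. In that model the first exon joins the shared downstream exon directly, whereas annotated Mpc1-208 places a 4-base exon between them. The RNA sequence across that join is printed for both, 5′ to 3′ over chr17:8283932-8296564, with the 4-base exon in capitals.
Mpc1-208: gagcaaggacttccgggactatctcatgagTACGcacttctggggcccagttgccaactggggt
Mpc1 leading model: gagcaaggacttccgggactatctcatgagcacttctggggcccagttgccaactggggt
Of the reads that cover the join, 368 of 383 and 370 of 381 took the direct path (96.1% and 97.1%), and 0 passed through the 4-base exon, which allows a share of up to 0.783% and 0.787%. The other 4-base exon annotated in the gene was held by 0 reads as well. Read on the mm10 sequence from the annotated start codon, Mpc1-208 has 109 codons and the leading model 42. The files give models rather than read bases, so whether the reads themselves carry the 4 bases was not tested. Mpc1 also has a near copy, the processed pseudogene Mpc1-ps, whose annotated single exon matches Mpc1 over 330 bases at 99.7% identity. Mpc1-ps was given 324 and 303 reads, nearly as many as Mpc1 itself, so the level of Mpc1 is uncertain to that extent.

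In the pyruvate dehydrogenase complex, Pdha1 encodes the alpha subunit of the E1 enzyme that decarboxylates pyruvate, and it is the subunit the kinases phosphorylate. It had 1267 reads in replicate 1 and 1435 in replicate 2, or 939 and 1055 CPM, a ratio of 1.12 (1.04 to 1.21, adjusted p = 0.0358 by Fisher's exact test). That call was lost when no minimum of reads was set (adjusted p = 0.0587). The gene lies at chrX:160122209-160138413 on the minus strand, and Pdha1-201 took 92.7% and 94.1% of its reads. The other 4 subunits did not pass. Pdhb, the E1 beta subunit, had 378 and 338 reads. Dlat, the E2 acetyltransferase core, had 662 and 774 reads, a ratio of 1.16 (1.05 to 1.29) with adjusted p = 0.0614. The E3 dehydrogenase Dld, shared with the 2-oxoglutarate complex, had 327 and 371 reads, and Pdhx, which tethers E3 to the core, had 193 and 221. By reads, Pdha1 took 44.8% and 45.7% of the complex and Pdhx the least, 6.83% and 7.04%. Pdhb ranked below Dlat by reads (13.4% and 10.8% against 23.4% and 24.7%) but above it when reads were divided by model length (23.5% and 19.4% against 15.4% and 16.6%). In each of the 5 genes 1 annotated transcript held over 90% of reads in both libraries.

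Among the families examined, the kinases differed most in their shares between the libraries. Pdk4 (chr6:5483351-5496309, minus strand) had 704 reads in replicate 1 and 1315 in replicate 2, or 522 and 967 CPM, 1.85-fold higher in replicate 2 (1.69 to 2.03, adjusted p = 3.54e-39 by Fisher's exact test). Pdk2, the other abundant kinase of muscle, had 1101 and 1007 reads, a ratio of 0.907 (0.833 to 0.988) that missed the threshold with adjusted p = 0.188. Pdk4 took 37.3% of kinase reads in replicate 1 (35.2 to 39.5) and 54.7% in replicate 2 (52.7 to 56.7), while Pdk2 took 58.3% and 41.9%. The order of the 2 kinases by reads was thus opposite in the libraries. Divided by model length, 3484 bases for Pdk4 and 2246 for Pdk2, Pdk2 led in both libraries, at 69.1% against 28.5% and at 53.2% against 44.8%. Pdk1 was level at 76 and 77 reads, and Pdk3 was scarce, with 6 and 4. The annotated transcript Pdk4-201 made up 85.9% and 88.5% of the gene, and unannotated single-exon models, most of them in its last exon, another 8.95% and 6.54%. Antisense models over Pdk4 held 5 and 57 reads, and their part in the Pdk4 count was not tested.

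Phosphatase genes were far less read. Pdp1, the calcium-activated catalytic subunit, had 71 and 102 reads, a ratio of 1.43 (1.05 to 1.93, adjusted p = 0.171). Pdp2, the other catalytic subunit, had 1 and 7 reads and was too scarce to test. Pdpr, the regulatory subunit, had 33 and 59 reads, a ratio of 1.77 (1.16 to 2.71) with adjusted p = 0.0911. All 3 ratios were above 1 and none passed. Pdp1 supplied 98.6% and 93.6% of the catalytic-subunit reads, and the 1 and 7 reads of Pdp2 leave intervals of 0.246 to 7.46% and 3.15 to 12.7% for the rest. In Pdpr the most read entry joined 1 unannotated single-exon model from each library, with 12 and 39 reads, 36.4% and 66.1% of the gene. The 2 models were placed differently. That of replicate 1 lay mainly in a last exon, whereas that of replicate 2 ran past the annotated end of the gene. The spliced Pdpr-201 had 9 and 8 reads. With spliced models alone, the log2 ratio of Pdpr was -0.08, so its higher count in replicate 2 lay in the single-exon models.

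**Figure D3:**
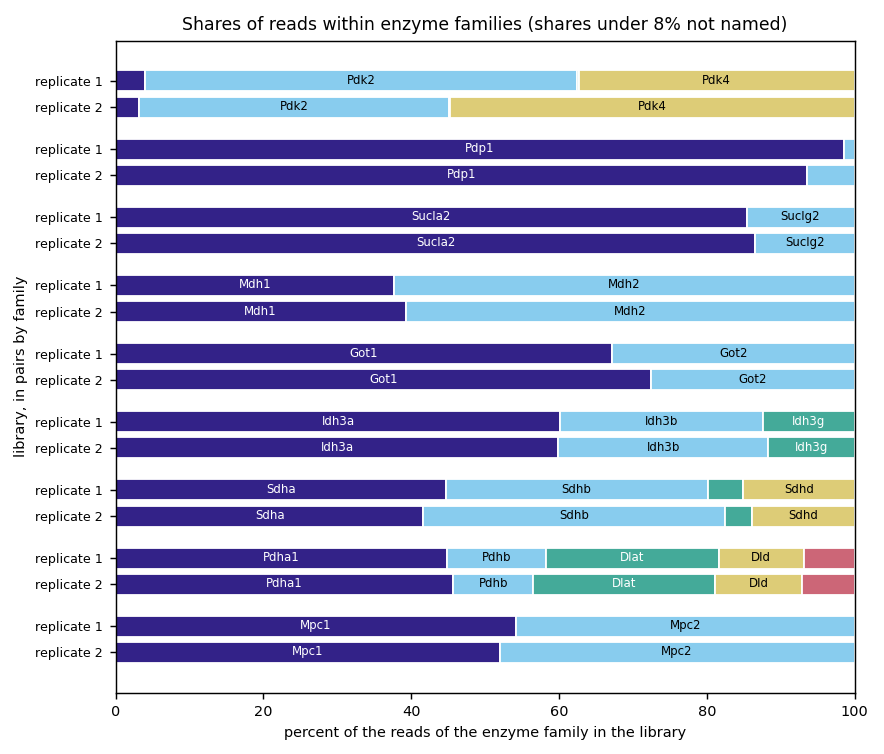
Share of reads (percent) taken by each gene within its enzyme family, with replicate 1 above replicate 2 in each pair of bars. The Pdk4 segment widens from 37.3% to 54.7% and passes Pdk2, whereas the segments of the Idh3, pyruvate dehydrogenase and Mpc families keep nearly the same widths.

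Citrate synthase, Cs, which starts the cycle and is widely used as a marker of mitochondrial content, had 814 reads in replicate 1 and 847 in replicate 2, or 603 and 623 CPM. Its ratio of 1.03 (0.938 to 1.14) did not pass the test. Mitochondrial Idh2, the NADP-dependent isocitrate dehydrogenase that supplies NADPH, behaved otherwise. Idh2 (chr7:80094846-80115392, minus strand) had 532 and 1045 reads, or 394 and 768 CPM, 1.95-fold higher in replicate 2 (1.76 to 2.16, adjusted p = 1.59e-35 by Fisher's exact test). This was the largest ratio of any tested member, and Idh2-201 held 94.0% and 92.7% of the reads in the libraries.

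The NAD-dependent isocitrate dehydrogenase is built from catalytic Idh3a and regulatory Idh3b and Idh3g, and none of the 3 passed. Idh3a had 1443 and 1502 reads, Idh3b 658 and 713, and Idh3g 296 and 293. Their shares of the enzyme's reads were 60.2%, 27.5% and 12.3% in replicate 1 and 59.9%, 28.4% and 11.7% in replicate 2, so the proportions were nearly equal in the 2 libraries. Idh3b and Idh3g have short models, 1216 and 1323 bases against 2580 for Idh3a. Divided by length, Idh3a and Idh3b took about equal shares, 42.2% and 40.9% in replicate 1 and 41.9% and 42.2% in replicate 2.

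Idh3b (chr2:130279309-130284547, minus strand) ended almost always in another last exon than its annotated transcript Idh3b-201. The leading model, an unannotated combination of annotated splice sites, had 591 and 640 reads, 89.8% in both libraries. Its last junction runs to an acceptor 289 bases beyond that of Idh3b-201 and leaves a last exon of 131 bases in place of 418. The only annotated transcript with that acceptor is Idh3b-204, which is classed as a target of nonsense-mediated decay. The sequences run from 30 bases before the junction to the stop codon, chr2:130279640-130280292 for Idh3b-201 and chr2:130279363-130280292 for the leading model, with the last exon in capitals.
Idh3b-201: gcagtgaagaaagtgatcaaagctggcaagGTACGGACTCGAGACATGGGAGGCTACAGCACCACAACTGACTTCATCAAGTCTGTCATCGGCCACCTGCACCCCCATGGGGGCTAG
Idh3b leading model: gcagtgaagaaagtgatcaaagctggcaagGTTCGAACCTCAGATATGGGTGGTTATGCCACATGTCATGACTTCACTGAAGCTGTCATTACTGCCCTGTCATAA
Neither stretch meets a stop codon before the printed end, and the model with the far last exon reads 380 codons while Idh3b-201 reads 384, with different ends. Of reads over the last junction, 625 of 641 in replicate 1 (97.5%, 96.0 to 98.5) and 692 of 697 in replicate 2 (99.3%, 98.3 to 99.7) used the far acceptor. The near acceptor of Idh3b-201 had 16 and 5 reads.

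Idh3g (chrX:73778963-73786897, minus strand) showed another departure from its annotation. Idh3g-201 holds a 12-base coding exon, and of 286 and 281 reads that span its place 0 held it, which allows a share of up to 1.05% and 1.07%. In 280 and 279 reads (97.9% and 99.3%) the upstream exon instead ran 4 bases further before the junction, to an unannotated donor. The join is printed for both over chrX:73782074-73782704, with the 12-base exon and the 4 added bases in capitals.
Idh3g-201: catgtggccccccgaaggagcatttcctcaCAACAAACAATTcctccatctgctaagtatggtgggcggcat
Idh3g leading model: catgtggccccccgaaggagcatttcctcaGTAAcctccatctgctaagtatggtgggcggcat
The leading model so drawn, with 268 and 262 reads (90.5% and 89.4%), reads 46 codons against 393 in Idh3g-201. As for Mpc1, these bases come from the reference at the model's coordinates and not from reads, and whether the reads carry the 12 bases was not tested.

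Ogdh, the E1 enzyme of the 2-oxoglutarate dehydrogenase complex and a calcium-sensitive step of the cycle, had 1015 reads in replicate 1 and 1195 in replicate 2, or 752 and 879 CPM. The ratio was 1.17 (1.07 to 1.27, adjusted p = 0.00628 by Fisher's exact test). Its reads were spread over 98 models, the most of any member, on a gene that runs over chr11:6291633-6356642 on the plus strand. Ogdh-201 took 57.3% and 59.6% and Ogdh-204 7.49% and 9.37%, and no other model reached 5%. Truncated spliced models, which match only part of an annotated transcript, together held 21.2% and 17.6% of its reads. Annotated transcripts differ by a choice between 2 coding exons, an upstream one of 91 bases at chr11:6316765-6316855 and a downstream one of 103 bases at chr11:6316978-6317080. Both exons are printed whole in capitals.
Ogdh upstream exon: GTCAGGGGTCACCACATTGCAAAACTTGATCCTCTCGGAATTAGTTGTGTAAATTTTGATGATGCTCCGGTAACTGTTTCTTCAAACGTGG
Ogdh downstream exon: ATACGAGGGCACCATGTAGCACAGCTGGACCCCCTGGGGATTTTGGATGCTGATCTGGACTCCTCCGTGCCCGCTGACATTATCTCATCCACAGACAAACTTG
The downstream exon was held by 786 of 789 reads over this region in replicate 1 (99.6%, 98.9 to 99.9) and by 961 of 966 in replicate 2 (99.5%, 98.8 to 99.8). The upstream exon was held by 3 reads and 1 read, and no read held both, which allows a share of up to 0.380% and 0.311%. A further 45-base exon, annotated in Ogdh-203, was held by 8 and 9 of the same reads, or 1.01% and 0.932%. With the downstream exon and without the 45-base exon the annotated protein has 1023 codons (Ogdh-201), against 1019 in Ogdh-202 and 1034 in Ogdh-203.

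Among the splice choices of Ogdh counted here, the first exon was the most divided. Of reads joined to the second exon, which starts at position 6296952 and holds the start codon, 616 of 753 in replicate 1 (81.8%) and 745 of 932 in replicate 2 (79.9%) came from the donor of Ogdh-201. The donor of Ogdh-204 had 10.4% and 12.4%, that of Ogdh-207 3.85% and 3.86%, that of Ogdh-202 2.39% and 1.50%, and that of Ogdh-206 1.33% and 1.18%. The same order of the first 3 donors held in both libraries. Since these exons lie before the start codon, they alter the untranslated leader and not the coding sequence.

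**Figure D4:**
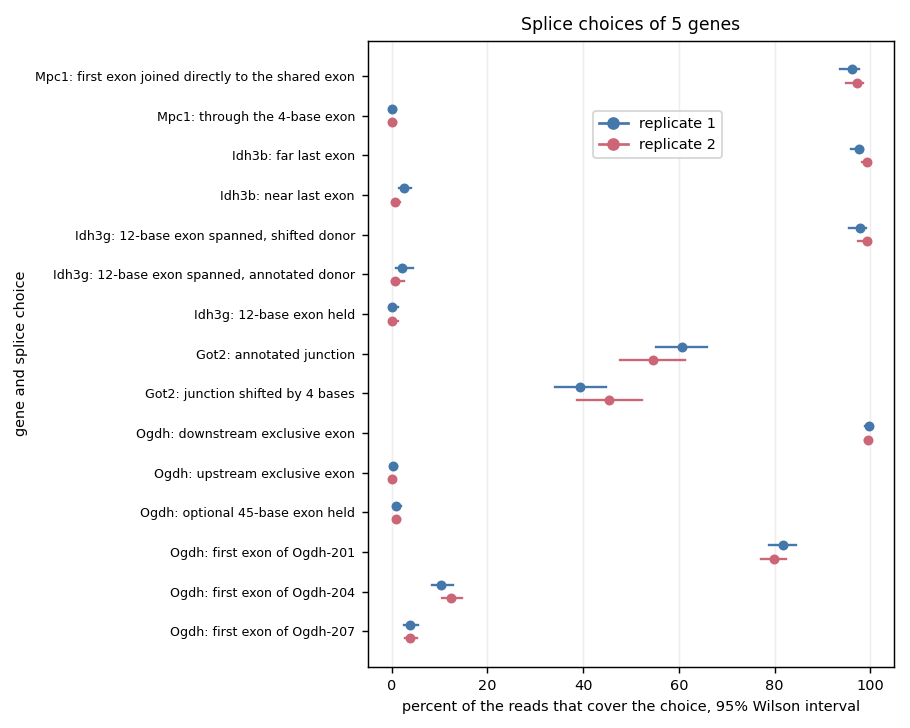
Percent of the reads covering each splice choice that took it, in replicate 1 and replicate 2, with 95% Wilson intervals. The intervals of the libraries overlap for every choice plotted, and the points lie near the edges of the axis except for the Got2 junction, which is split between its forms, and the first exons of Ogdh.

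Dlst, the E2 core of the same complex, had 232 reads in the first library and 178 in the second, with a ratio of 0.761 (0.626 to 0.925) with adjusted p = 0.0732. Its direction was opposite to that of Ogdh, but it did not pass. With annotated transcripts alone it did pass, in the lower direction. Dlst-201 held 72.8% and 66.9% of its reads, and unannotated single-exon models another 12.9% in each library.

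Succinyl-CoA ligase pairs a shared alpha subunit, Suclg1, with either an ATP-forming beta subunit, Sucla2, or a GTP-forming one, Suclg2. Sucla2 (chr14:73525319-73596142, plus strand) had 742 and 872 reads, or 550 and 641 CPM, a ratio of 1.17 (1.06 to 1.29, adjusted p = 0.0326 by Fisher's exact test). That call was lost when annotated transcripts alone were counted and when no minimum of reads was set. Suclg2 had 127 and 135 reads and Suclg1 327 and 288, and neither passed. The ATP-forming subunit thus led the GTP-forming one, with 85.4% and 86.6% of beta subunit reads, and with 89.8% and 90.7% when divided by length.

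Succinate dehydrogenase, which is also respiratory complex II, has flavoprotein Sdha, iron-sulphur protein Sdhb and membrane anchors Sdhc and Sdhd. Only Sdhb passed among the 4. Sdhb (chr4:140961203-140979193, plus strand) had 1037 and 1316 reads, or 769 and 968 CPM, a ratio of 1.26 (1.16 to 1.37, adjusted p = 1.60e-06 by Fisher's exact test). Sdha was level at 1307 and 1344 reads, Sdhd at 441 and 448, and Sdhc had 141 and 119. By reads Sdha led in both libraries, at 44.7% against 35.4% for Sdhb in replicate 1 and 41.6% against 40.8% in replicate 2, where their intervals overlap. Divided by length the order was reversed, with Sdhb at 51.6% and 57.1% and Sdha at 25.6% and 23.0%, because the leading model of Sdhb has 1142 bases and that of Sdha 2900. Sdhc was the scarcest subunit on both scales. Its leading transcript Sdhc-202 held 79.4% and 74.0%, whereas Sdhb-201 held 92.0% and 91.0%.

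Fumarase, Fh1, had 551 and 594 reads, and mitochondrial malate dehydrogenase, Mdh2, 1344 and 1385, with ratios of 1.07 (0.953 to 1.20) and 1.02 (0.949 to 1.10). Neither passed. Most Fh1 reads were Fh1-201 (89.7% and 88.2%), but the short annotated Fh1-203, of 3 exons and 936 bases, had 45 and 56 reads, 8.17% and 9.43%. Of the 16 cycle genes as a whole, 4 were higher in replicate 2, 0 were lower and 12 did not pass, with a median log2 ratio of 0.05. Over all tested genes 4.25% were higher and 3.56% lower, and among all genes with 100 to 3000 reads summed 9.95% were higher.

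Among the shuttle enzymes, cytosolic Mdh1 had 813 and 894 reads, a ratio of 1.09 (0.992 to 1.20) that did not pass. Mdh2 took 62.3% and 60.8% of malate dehydrogenase reads, and 70.7% and 69.3% by length. Got1, the cytosolic aspartate aminotransferase, had 759 and 657 reads, a ratio of 0.859 (0.774 to 0.953) with adjusted p = 0.0548 by Fisher's exact test. It passed when spliced models alone, annotated transcripts alone or genes with at least 20 reads were tested. Got2, the mitochondrial aminotransferase (chr8:95864134-95888547, minus strand), had 370 reads in replicate 1 and 250 in replicate 2, or 274 and 184 CPM. Got2 was lower in replicate 2 by a ratio of 0.670 (0.571 to 0.787, adjusted p = 4.00e-05). Of these 4 enzymes of the malate-aspartate shuttle only Got2 passed, with the ratio of Got1 under 1 and those of Mdh1 and Mdh2 above it. The share of Got2 among the 2 aminotransferases was 32.8% (30.1 to 35.6) and 27.6% (24.8 to 30.6).

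Got2 was the member whose reads were split most evenly between spliced models. Got2-201 held 45.7% and 37.6%, and an unannotated model with the same number of exons held 33.5% and 36.0%. Their introns differ at 1 junction, where both the donor and the acceptor of the unannotated form lie 4 bases further along the transcript than the annotated ones. The first exon of the unannotated model is also shorter at its outer end, and the model has 2375 bases against 2530 for Got2-201. The annotated join is printed over chr8:95865222-95866850, with the 4 bases after the junction that the shifted form leaves out in capitals.
Got2-201: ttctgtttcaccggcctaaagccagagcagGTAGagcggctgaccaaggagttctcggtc
The shifted junction had 128 of 325 reads in replicate 1 (39.4%, 34.2 to 44.8) and 93 of 205 in replicate 2 (45.4%, 38.7 to 52.2), and these intervals overlap. As for Mpc1, the junctions come from models and not from read bases. Whether the reads given to the 2 forms differ in sequence was not tested. The reading frame of Got2-201 has 430 codons. The 4 bases that the shifted form adds lie in no annotated exon and were left as unknown. Read in that way, the shifted form also has 430 codons and ends at the same stop codon. A stop codon that includes the unknown bases could not be seen. A pseudogene, Got2-ps1, matches Got2 over 1293 bases at 99.1% identity but had only 2 and 9 reads.

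The remaining members feed carbon in and out of the cycle. Pcx, pyruvate carboxylase, which makes oxaloacetate from pyruvate, had 215 and 244 reads, and Me3, the mitochondrial NADP-dependent malic enzyme, had 177 and 171. Their ratios of 1.13 (0.938 to 1.35) and 0.959 (0.777 to 1.18) did not pass. Pcx-201 held 60.9% and 59.8% of reads, and single-exon models in the last exon of Pcx 7.44% and 18.4%. Me3-202 held 71.2% and 80.1%, and an unannotated 15-exon combination of annotated sites 16.4% and 10.5%.

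Across the members, the leading transcript model was an annotated one in 31 genes and an unannotated one in 4, namely Mpc1, Idh3b, Idh3g and Pdpr. In 33 members with at least 20 reads per library the share of the leading model was tested between the libraries, and in 24 of them that share averaged at least 85%. Adjusted over the 4881 genes so tested (Fisher's exact test), 0 of the 33 passed, where 1.7% of all of them did. The lowest adjusted p was 0.0886, for Got1, whose Got1-201 held 93.9% and 89.3%. Unadjusted, 5 of the 33 were under 0.05 (Dld, Pdpr, Sdhd, Got1 and Got2). The share of all 4881 genes under that unadjusted limit was not counted, so nothing about the members can be read from the 5. Internal exons were tested where pooled inclusion lay between 5% and 95%. Only 1 such exon fell in a member, in Idh3a at chr9:54589858-54589896, included by 28 of its informative reads and skipped by 5 in replicate 1, and by 30 and 3 in replicate 2. It did not pass (adjusted p = 1.0), and 0.405% of the 1973 exons tested did.

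**Figure D5:**
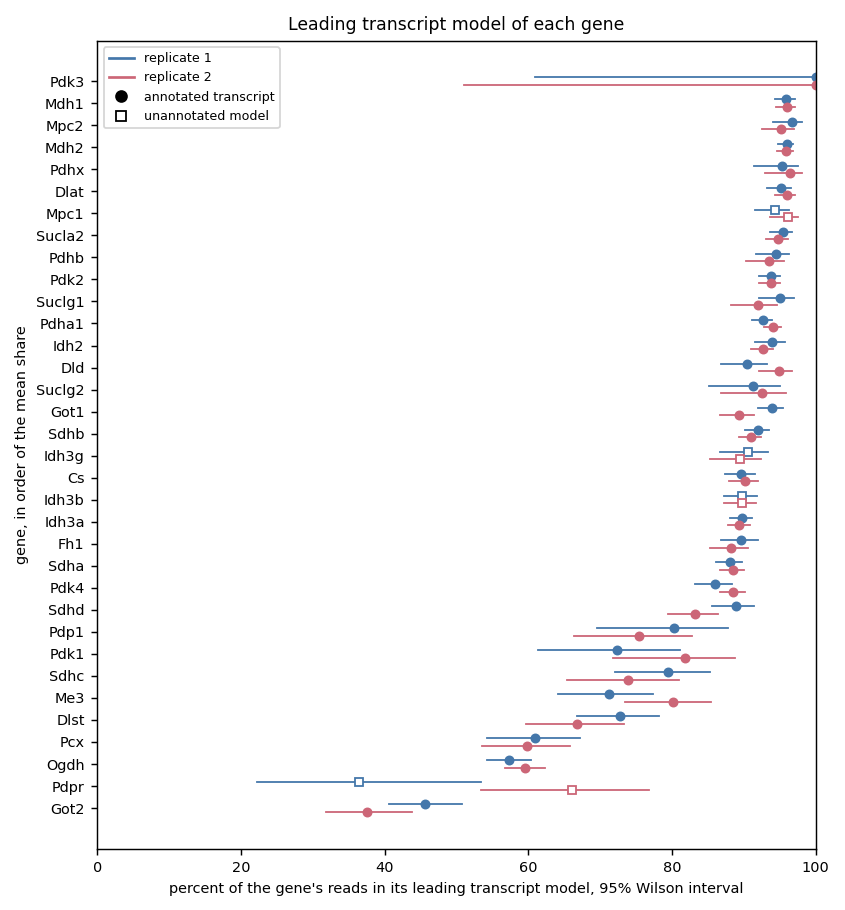
Percent of each gene's reads in its leading transcript model in replicate 1 and replicate 2, with 95% Wilson intervals, as filled circles for annotated transcripts and open squares for unannotated models. Most genes lie above 85%, while Got2, Pdpr, Ogdh and Pcx lie lowest, and the open squares mark Mpc1, Idh3b, Idh3g and Pdpr.

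Annotated spliced transcripts held 82.9% and 83.6% of the members' reads, against 63.9% and 63.3% over all annotated genes. Reads of models with an unannotated splice site made up 3.79% and 3.34% of the members, against 18.5% and 17.9% over all annotated genes, with the Idh3g and Got2 models as the most read. New combinations of annotated sites made up 6.35% and 5.98%, where Idh3b and Mpc1 led. Truncated spliced models held 4.64% and 4.37%. Single-exon models, counted apart whether annotated or not, took 2.29% and 2.71%, against 4.91% and 5.86% over all annotated genes. Of the members' reads in unannotated single-exon models, 87.2% and 87.8% lay mainly in a last exon of their gene. Genes with longer leading models tended to have larger single-exon shares, with a Spearman correlation of 0.61 across 33 members, which share libraries and are not independent. For Pdpr the leading entry is itself the joined single-exon models, so its length and its share have the same source. Antisense models over the members held 54 and 148 reads, a ratio of 2.72 in CPM, beside 2.46 for all antisense models of the libraries. Of the members' antisense reads, 5 and 57 lay over Pdk4 alone, so the summed ratio rests largely on that gene.

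Of 38 further genes of the same pathways, 31 could be tested, 4 were higher and 5 lower in replicate 2, and 22 did not pass, beside 4.25% higher and 3.56% lower over all tested genes. The heart-type lactate dehydrogenase subunit Ldhb, which favours lactate use, was higher, with 562 and 933 reads (ratio 1.65, 1.48 to 1.83), while the muscle-type Ldha had 9581 and 9349 and did not pass. Esrra, a nuclear receptor that drives mitochondrial genes, was higher, with 198 and 516 reads (2.59, 2.20 to 3.05), as was Foxo1, a fasting-responsive transcription factor known to act on Pdk4, with 27 and 60 (2.20, 1.41 to 3.46). The coactivator Ppargc1a had 17 and 39 reads and did not pass (adjusted p = 0.0559 by Fisher's exact test). Nnt, the proton-driven transhydrogenase, had 31 and 101 reads under 1 of 2 gene identifiers that share its name, so its call is uncertain. Lower in replicate 2 were the cytosolic Idh1 (91 and 49 reads) and Pck1, the gluconeogenic and glyceroneogenic carboxykinase (38 and 2). Acly, which cleaves citrate for fat synthesis, was lower as well (119 and 76 reads), with the citrate carrier Slc25a1 (25 and 6) and the dicarboxylate carrier Slc25a10 (24 and 5). Lower as well were the adipocyte markers, summed at 1272 CPM in replicate 1 and 173 in replicate 2 (ratio 0.136). So were the myelin markers, at 677 and 97.1 CPM (0.143). The ratios of Idh1 (0.534) and Acly (0.634) lay nearer to 1 than those of both lists. The part of either tissue in these 5 genes was not tested. Of 8 tested genes of lipoylation and of complex assembly 0 passed. The higher members, from Idh2 to Pdha1, stood beside slow-fibre markers summed at 1639 and 9546 CPM. Of the 8 skeletal muscle markers, 5 were higher as well, Myh4 (ratio 1.27) and Myh1 (1.18) among them, and 3 were lower. The part of fibre type in the higher members was not tested.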

How the data were processed

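Long-read RNA libraries of gastrocnemius, 1 per replicate, were analysed. The authors deposited raw read counts per transcript model, made per library from filtered alignments on mm10 with GENCODE M21, per the deposited notes, and the exon coordinates and model lengths of each model in bases (the deposited annotation names TALON as source). Neither aligner nor read filters are stated in these sources. A gene's counts were added up and scaled by all reads of its library, spike-ins included, as counts per megaread (CPM). Annotated models were joined by identifier, unannotated ones by gene and intron chain, and single-exon ones per gene. Two-sided Fisher's exact tests compared each gene with all other reads (at least 10 reads), the leading model with the gene's others (at least 20 reads per library) and included with skipping reads per exon (at least 20 per library), each with Benjamini-Hochberg adjustment over all features and a threshold of 0.05 (Python 3.11.15, scipy 1.17.1). The gene and leading-model tests were run on simulated counts without variation between animals, so that check does not cover such variation. A quasi-likelihood fit needs replicates within groups, so edgeR 4.0.16 (R 4.3.3) was run only as an exact test with assumed dispersions and for TMM scaling. Folds are ratios of CPM with the 95% Wilson interval of the read split. Near copies were sought with minimap2 2.31 (at least 200 aligned bases, 85% identity). Sequences come from GENCODE M21 transcripts, and models were drawn on the reference. The strandedness of the protocol is not stated there, so antisense models are the authors' assignment. The named genes were all members, with full values for those past the threshold and leading models of the rest, and pathway genes past the threshold. Members and lists were chosen with earlier results of these data known.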

Additional observations from a re-analysis of the deposited data

How the results depend on the processing

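Leaving out a library leaves no comparison between libraries, and no paired analysis was possible because both libraries form 1 group. The 7 calls between the libraries all remained with other library totals (7 with spike-ins and mitochondrial genome genes left out, 7 with TMM scaling). With no minimum of reads 5 of 35 members passed, beside 613 of all 15371 genes. With annotated transcripts alone 8 of 33 passed, 3 of them lower in replicate 2, beside 510 of 7564 genes. With spliced models alone 8 of 34 passed, 2 of them lower, beside 623 of 8523 genes. With at least 20 reads 8 of 33 passed, 2 of them lower, beside 734 of 7470 genes. At an assumed dispersion of 0.01 in the exact test of edgeR, 2 members passed, 2 higher and 0 lower, and with 0.04, 0 passed, 0 higher and 0 lower, while 173 and 50 of all 9341 genes did. The median log2 ratio of the members stayed between 0.04 and 0.09 over the 8 alternatives. No member passed the test of the leading model or of exon inclusion under any alternative run (3 each). Members with no call that turned direction were Pdpr (log2 ratio -0.16 with annotated transcripts alone and -0.077 with spliced models alone), Sdhd (-0.083 and -0.096), Pcx (-0.011 with spliced models alone), and, with annotated transcripts alone, Idh3b (-1.37, where few reads are left) and Me3 (0.11).

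Mean shares over the libraries moved when reads were divided by model length, to 90.3% for Sucla2, 70.0% for Mdh2, 26.0% for Got2, 42.1% for Idh3a, 54.3% for Sdhb, 42.7% for Pdha1 and 54.8% for Mpc1. A share was counted as moved when it shifted by at least its SD over the libraries. By length the mean share of Pdk4 went from 46.0% to 36.6%, a shift smaller than its wide SD of 12.3 points. With annotated transcripts alone the mean shares moved to 16.4% for Got2, 99.2% for Idh3a and 2.93% for Mpc1, where unannotated models are left out. Without 1 replicate, the shares were 37.3 to 54.7% for Pdk4, 93.6 to 98.6% for Pdp1, 85.4 to 86.6% for Sucla2, 60.8 to 62.3% for Mdh2, 27.6 to 32.8% for Got2, 59.9 to 60.2% for Idh3a, 35.4 to 40.8% for Sdhb, 44.8 to 45.7% for Pdha1 and 52.0 to 54.2% for Mpc1. Depth limits what can be said of Pdk3, Pdp2 and Pdpr.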
